A study of Rattus norvegicus with 10 samples.

Results

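Transthyretin (TTR), folate receptor alpha (FOLR1) and the retinol-binding protein receptor STRA6 are 3 of the 32883 genes listed for the choroid plexus of 10 rats. They were chosen by name as carriers and receptors of vitamins and thyroid hormone, and were linked by Ensembl identifier through the study's gene table, of which a copy with 1997 genes was used for names. All rats were female Wistar rats aged 27 weeks. The control diet held 10% of its energy as fat and was matched in nutrient sources to the high fat diet (HFD), which held 60%, and each was fed for 21 weeks to 5 of these rats. Each library came from 1 rat, without pooling, and held the choroid plexus of the lateral ventricles together with that of the fourth ventricle. The labels give no other treatment, and the study took rats that met limits on body weight for their diet. The comparison of the diets asks whether feeding this diet changed the level of these transcripts.

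The choroid plexus is an epithelial tissue that secretes cerebrospinal fluid and passes selected nutrients from blood to brain. TTR, made by this epithelium and by the liver, binds thyroxine and carries retinol by binding retinol-binding protein. FOLR1 on the epithelial surface takes up folate and delivers it to the cerebrospinal fluid, and STRA6 is a membrane receptor through which retinol enters cells from its binding protein.

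Promoter windows of RefSeq (GRCr8) were matched for 2 of the 3 genes, and the 250 bases before the annotated start are shown for TTR, the most abundant transcript here, and for STRA6. Both windows are on the plus strand and are written 5′ to 3′, with CpG dinucleotides in capitals. The window of Ttr is at chr18:12218508-12218757 and that of Stra6 at chr8:67444507-67444756.
Ttr: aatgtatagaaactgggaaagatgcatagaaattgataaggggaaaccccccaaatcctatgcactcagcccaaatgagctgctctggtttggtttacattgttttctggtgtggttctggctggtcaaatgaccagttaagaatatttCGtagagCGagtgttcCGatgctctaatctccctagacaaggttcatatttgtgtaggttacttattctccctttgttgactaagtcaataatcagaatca
Stra6: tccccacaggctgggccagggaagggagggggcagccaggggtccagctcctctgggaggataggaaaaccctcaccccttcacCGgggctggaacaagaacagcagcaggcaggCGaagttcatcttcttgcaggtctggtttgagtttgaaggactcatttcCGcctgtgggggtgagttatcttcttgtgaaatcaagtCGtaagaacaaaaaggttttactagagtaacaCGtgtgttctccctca
The Ttr window had a GC content of 40.4% and 3 CpG, and 14.7% of all windows had a lower GC content. The Stra6 window had 53.6% and 5 CpG, against medians of 51.2% and 5 over 33469 windows. Both strands were searched for exact matches of 4 short motifs, none of which had a match in either window. A site spelled otherwise, or one outside the 250 bases, would be missed, so the lack of a match does not show the lack of a site. The core bound by OTX2, TAATCC, was held by 6.34% of all windows. The nuclear receptor half-site AGGTCA was held by 14.1% of them. The forkhead core TGTTTAC was held by 3.21%, and the box TATAAA, found near many transcription starts, by 12.9%. No value here measures binding or activity of these windows.

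Levels are given as TPM (transcripts per 1000000 transcripts), a unit per transcript length with the same total in every rat, so that levels of different genes can be compared. Because TPM are parts of a fixed total, they were also divided by a factor for each rat, the median ratio of its genes to their mean over rats across 12037 genes. These values are called rescaled TPM. The factor was 0.749 in control 1 and 1.01 to 1.05 in the other control rats, so control 1 moved most. This rat also had a mean effective transcript length of 789 bases, against 905 to 918 in the other control rats and 874 to 968 in HFD-fed rats. The main comparisons and relations of the 3 genes are therefore given with and without it. The study's methods give a nominal sequencing output of 12 Gb, but the deposited values carry no read number, so the depth of each library is unknown. Between 16078 and 16703 genes were above 0 in a rat.

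TTR (ENSRNOG00000016275) was the most abundant transcript in 10 of 10 rats and made up 32.2% to 39.7% of all TPM. Its share in control rats 1 to 5 was 39.7%, 32.2%, 34.2%, 32.9% and 33.0%, with a mean of 34.4% ± 3.06 (SD, n = 5). In HFD-fed rats 1 to 5 it was 32.2%, 36.0%, 38.2%, 33.1% and 32.5%, with a mean of 34.4% ± 2.61 (SD, n = 5). The diets overlapped, and control 1, HFD 3 and HFD 2 were higher than the other 7 rats. The difference of the means was 0.0251 percentage points (exact permutation test, two-sided, p = 0.984, where 5 rats against 5 allow a smallest p of 0.00794). Without control 1, the control mean was 33.1% ± 0.811 (SD, n = 4) and the difference 1.36 percentage points (exact permutation test, two-sided, p = 0.389).

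The distance between TTR and every other transcript was large. The next gene was MT-CO1, a subunit of cytochrome c oxidase encoded by mitochondrial DNA, in 8 rats and MT-ATP8, a subunit of ATP synthase, in HFD 2 and HFD 3. TTR exceeded this gene 17.9- to 21.2-fold. Between 202 and 500 of the next genes had to be added together to equal TTR in a rat. FOLR1 stood at rank 49 to 63, with 0.109% to 0.144% of all TPM. STRA6 stood at rank 1324 to 1682, with 0.00543% to 0.00729%.

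**Figure D1:**
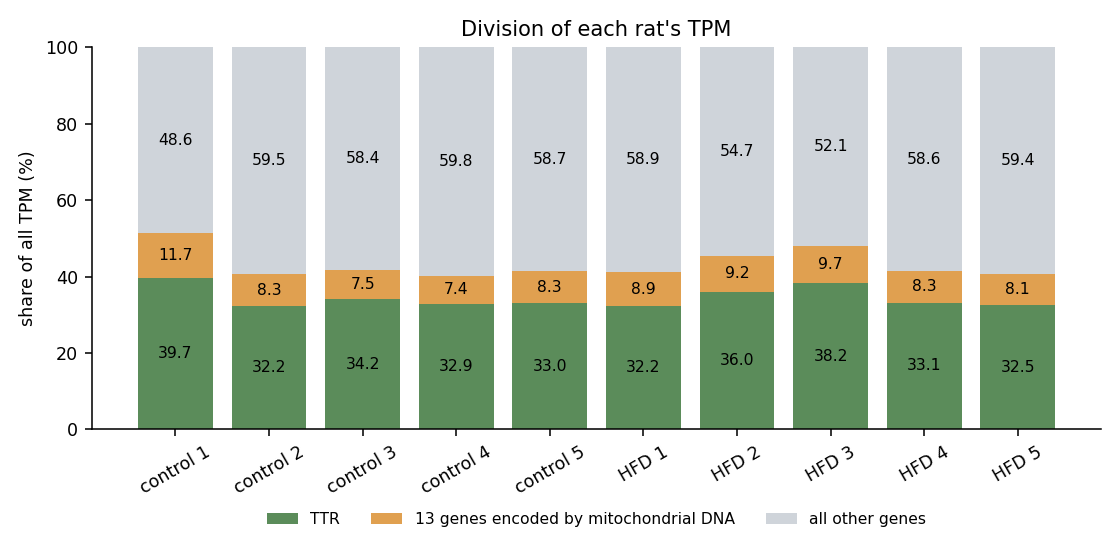
Share of all TPM (%) in each rat for TTR, for the 13 genes encoded by mitochondrial DNA and for all other genes, with 1 bar a rat. The TTR share runs from 32.2% to 39.7%, and the share of all other genes is lowest in control 1, at 48.6%.

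The genes encoded by mitochondrial DNA took 11.7% of TPM in control 1, 7.39% to 8.33% in the other control rats and 8.12% to 9.66% in HFD-fed rats. In control 1, HFD 3 and HFD 2, the rats with the highest TTR share, all other genes together held 48.6%, 52.1% and 54.7%. In the other 7 rats they held 58.4% to 59.8%. With the genes of mitochondrial DNA taken out of the total, the TTR share was 37.7% ± 4.12 (SD, n = 5) in control rats and 37.8% ± 3.11 (SD, n = 5) in HFD-fed rats (exact permutation test, two-sided, p = 0.944). Without control 1 the difference was 1.89 percentage points (exact permutation test, two-sided, p = 0.349).

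As rescaled TPM, TTR was at 530361, 318705, 326365, 316761 and 324323 in control rats 1 to 5. HFD-fed rats 1 to 5 had 299706, 381053, 404602, 301036 and 287895. Control 1 was highest, HFD 2 and HFD 3 came next, and the diets overlapped. The log2 fold change of the HFD over the control diet was -0.10 with a standard error of 0.20 and a 95% interval of -0.55 to 0.35, which is 0.683- to 1.27-fold (limma, adjusted p = 0.835). The exact permutation test gave p = 0.675 (two-sided). On TPM as deposited the interval was -0.15 to 0.16 (limma, adjusted p = 0.990), a change between 0.900- and 1.11-fold. Without control 1, the log2 fold change of the rescaled TPM was 0.04. In bulk tissue, fewer cells of a type and less RNA per cell cannot be told apart.

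FOLR1 (ENSRNOG00000019902) had a TPM of 1217, 1419, 1204, 1440 and 1268 in control rats 1 to 5, and a mean of 1310 ± 113 (SD, n = 5). The HFD-fed rats had 1336, 1263, 1086, 1253 and 1365, and a mean of 1261 ± 109 (SD, n = 5). The lowest value was that of HFD 3 and the highest that of control 4, and the diets overlapped. As rescaled TPM the control rats had 1624, 1404, 1150, 1389 and 1245. The HFD-fed rats had 1242, 1335, 1149, 1138 and 1211. Here control 1 was highest, and the mean was 1362 ± 180 (SD, n = 5) in control rats and 1215 ± 79.6 (SD, n = 5) in HFD-fed rats. The log2 fold change was -0.16 with a standard error of 0.095 and a 95% interval of -0.37 to 0.05 (limma, adjusted p = 0.585, and exact permutation test, two-sided, p = 0.119). TPM as deposited gave -0.06 (limma, adjusted p = 0.798). Without control 1, the log2 fold change of the rescaled TPM shrank to -0.09 (limma, unadjusted p = 0.248, adjusted 0.656). Without control 3 it was -0.22 (limma, unadjusted p = 0.0397, adjusted 0.545).

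STRA6 (ENSRNOG00000008312) had a TPM of 57.3, 65.9, 57.7, 60.3 and 62.2 in control rats 1 to 5, and a mean of 60.7 ± 3.55 (SD, n = 5). The HFD-fed rats had 63.3, 54.3, 54.4, 72.9 and 68.7, and a mean of 62.7 ± 8.35 (SD, n = 5). On the HFD, HFD 4 and HFD 5 were above every control rat and HFD 2 and HFD 3 below every control rat. As rescaled TPM the control rats had 76.4, 65.2, 55.1, 58.1 and 61.1. The HFD-fed rats had 58.8, 57.4, 57.6, 66.2 and 60.9. On this scale the HFD-fed rats lay within the range of the control rats, so that the wider spread moved from the HFD, with a coefficient of variation of 13.3% against 5.85% in TPM as deposited, to the control diet, with 13.1% against 6.06%. The wider control spread rested on control 1, since without it the coefficient was 7.20% in the other 4 control rats. HFD 4, at 66.2, was then above every remaining control rat. The log2 fold change was -0.06 with a standard error of 0.090 and a 95% interval of -0.26 to 0.14 (limma, adjusted p = 0.761, and exact permutation test, two-sided, p = 0.563). TPM as deposited gave 0.04 (limma, adjusted p = 0.880), and the rescaled TPM without control 1 gave 0.01.

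**Figure D2:**
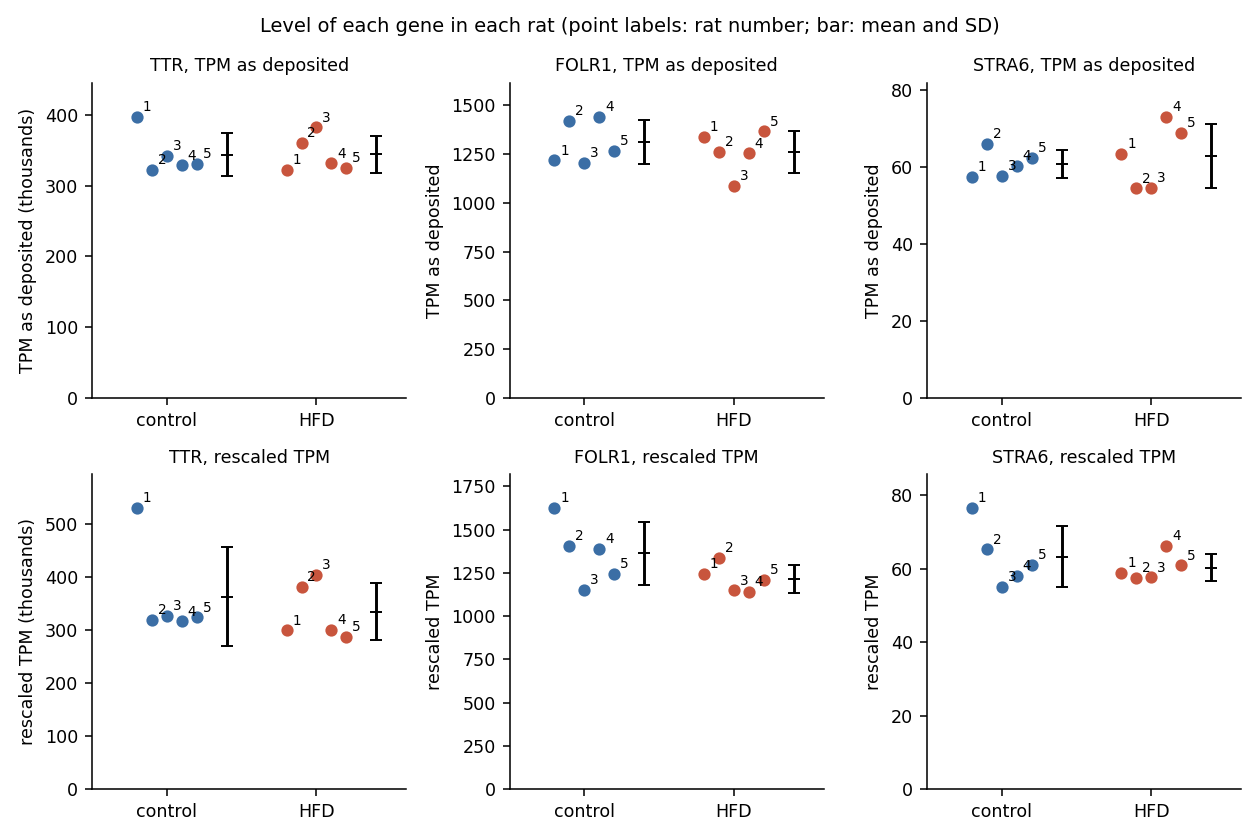
Level of TTR, FOLR1 and STRA6 in each rat, as TPM deposited (top) and rescaled TPM (bottom), by diet, where points are rats with their number, bars the mean and SD of 5 rats. Control 1 is the highest rat for all 3 genes after rescaling, at 530361, 1624 and 76.4, and the diets overlap in each panel.

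None of the 3 genes passed the adjusted test, and the same held for the whole table. limma gave 0 of 12198 genes with an adjusted p under 0.05 (0%), with a smallest adjusted p of 0.540. At an unadjusted p under 0.05 there were 1051 genes (8.62%), 461 higher (3.78%) and 590 lower (4.84%) on the HFD, and 0 of the 3 genes were among them. On TPM as deposited, 624 of 12221 genes (5.11%) had an unadjusted p under 0.05, of which 470 were higher and 154 lower, and again 0 were called after adjustment. Over all tested genes, the median log2 fold change was 0.12 on TPM as deposited and 0.01 on rescaled TPM. This shift of the scale is larger than the diet difference of STRA6 on either scale. The study itself, with another test (DESeq2) on raw counts, called a small share of genes, most of them lower on the HFD. The lack of calls here thus holds for limma on TPM.

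Ratios within a rat do not depend on the scaling. For each 1000 TPM of TTR there were 3.84 ± 0.574 TPM of FOLR1 in control rats and 3.69 ± 0.556 in HFD-fed rats (SD, n = 5 each, exact permutation test, two-sided, p = 0.690). For STRA6 these values were 0.178 ± 0.0228 and 0.184 ± 0.0355 (SD, n = 5 each, exact permutation p = 0.802). For each 100 TPM of FOLR1, the folate receptor, there were 4.65 ± 0.277 TPM of STRA6, the retinol receptor, in control rats and 4.98 ± 0.554 in HFD-fed rats (SD, n = 5 each, exact permutation p = 0.294). The highest such ratio was that of HFD 4, at 5.82, and the lowest that of control 4, at 4.18. Without control 1, the log2 difference of FOLR1 per TTR was -0.14 in place of -0.06 (exact permutation p = 0.381), that of STRA6 per TTR -0.04 in place of 0.04 (exact permutation p = 0.825) and that of STRA6 per FOLR1 0.10 (exact permutation p = 0.310). Without HFD 2, the log2 difference of this last ratio was 0.15 in place of 0.10 (exact permutation p = 0.0476, n = 5 and 4, not adjusted). This was the only p under 0.05 among the 3 ratios, each of which was tested with each of 10 rats left out.

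The rats with more TTR had lower TPM of both receptors. With log2 values centred within each diet, Pearson's r over 10 rats between TTR and FOLR1 was -0.756 (exact permutation p = 0.00604, adjusted over 3 pairs 0.0181) and Spearman's rho -0.758 (exact permutation p = 0.0178, adjusted 0.0533). Between TTR and STRA6, r was -0.717 (exact permutation p = 0.0233, adjusted 0.035) and rho -0.661 (exact permutation p = 0.0721, adjusted 0.108). Without control 1 and HFD 3, the 2 rats farthest from the median of TTR, r was -0.552 for FOLR1 and -0.765 for STRA6. Without control 1 alone it was -0.806 and -0.837. FOLR1 and STRA6 had an r of 0.573 with each other (exact permutation p = 0.0945) and a rho of 0.442 (exact permutation p = 0.190).

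The size and sign of these relations depended on the scale and on control 1. TPM sum to a fixed total, of which TTR holds more than any other gene, so a higher TTR lowers the sum of all other TPM by construction. Expressed per 1000000 of the TPM outside TTR, FOLR1 was 1996 ± 133 (SD, n = 5) in control rats and 1920 ± 106 (SD, n = 5) in HFD-fed rats. With TTR expressed likewise, the r of FOLR1 with TTR was -0.345 (exact permutation p = 0.384 and rho -0.552, p = 0.130). STRA6 per 1000000 outside TTR was 92.5 ± 3.89 and 95.4 ± 9.91 (SD, n = 5 each), and its r with TTR was -0.369 (exact permutation p = 0.301 and rho -0.382, p = 0.326). On this scale r was larger without control 1, at -0.604 for FOLR1 and -0.703 for STRA6, and without both control 1 and HFD 3 it was -0.276 and -0.652. As rescaled TPM, r was 0.589 for FOLR1 and 0.481 for STRA6 (exact permutation p = 0.157 and 0.274 and rho 0.0788 and -0.0182). Without control 1 these last values of r were 0.041 and -0.465, and without both control 1 and HFD 3 they were 0.436 and -0.197. The size of r for FOLR1 and its sign for STRA6 thus changed with the rats left out.

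**Figure D3:**
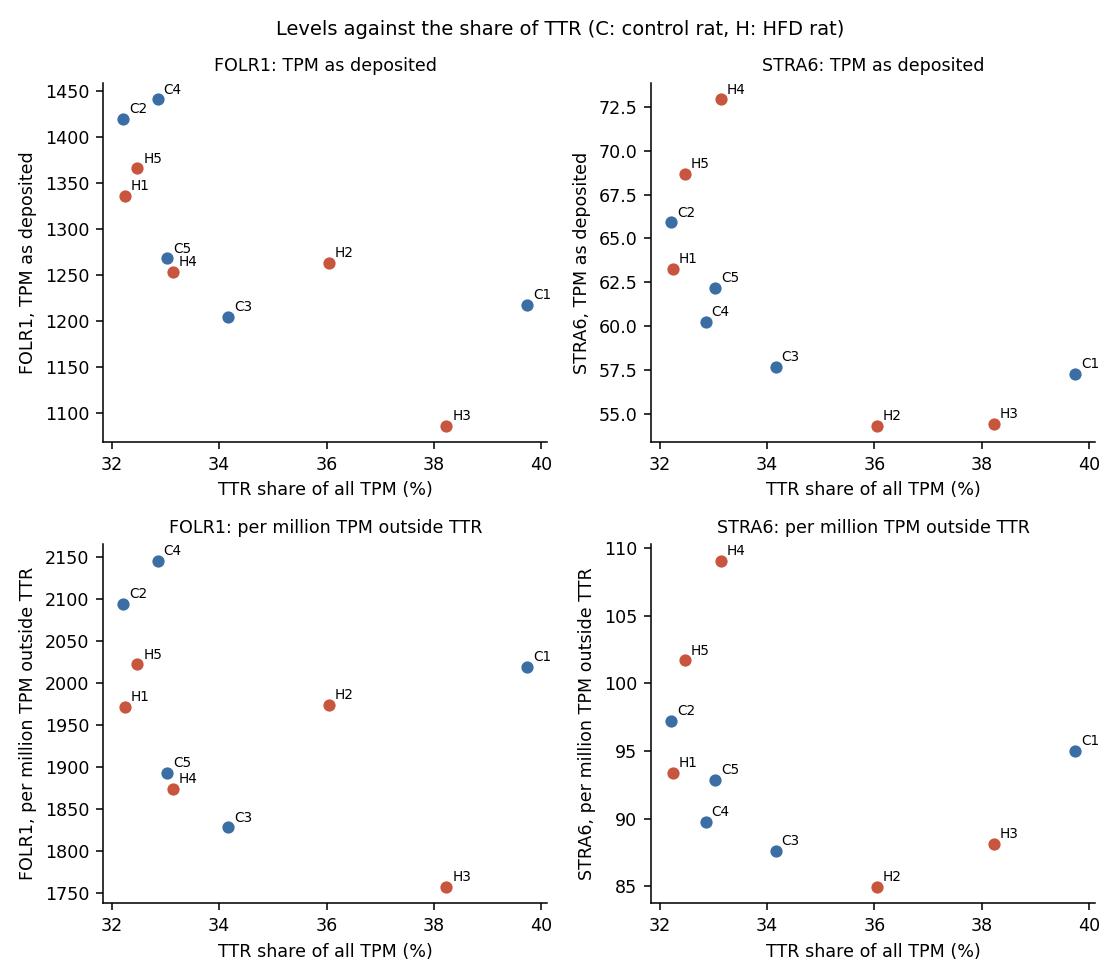
FOLR1 (left) and STRA6 (right) against the TTR share of all TPM (%), as TPM deposited (top) and per 1000000 TPM outside TTR (bottom), where each point is 1 rat, C for control and H for HFD, and the vertical axes do not start at 0. The r with TTR was taken on log2 values centred within each diet, with TTR on the scale of the vertical axis. It is -0.756 and -0.717 for the upper panels. For the lower ones it is -0.345 and -0.369, and -0.604 and -0.703 without control 1.

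The TTR share also moved with 2 measures of the libraries. Its r with the share of genes encoded by mitochondrial DNA was 0.839 (exact permutation p = 0.0183 and rho 0.455, p = 0.198), and 0.305 without control 1 and HFD 3, so this relation rested on those rats. Its r with the mean effective transcript length was -0.941 (exact permutation p = 0.0104 and rho -0.515, p = 0.158), and -0.768 without these rats. The adjusted values over these 2 relations were 0.0183 for both r and 0.198 for both rho. The mean length is an average weighted by TPM, so that TTR itself enters it, and the part of RNA quality or library preparation in these differences was not tested.

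On rescaled TPM, TTR varied more between rats of 1 diet than most genes did. Its within-diet SD of log2 rescaled TPM was 0.28, larger than that of 80.6% of 6272 genes with a mean of at least 10, whose median was 0.17. FOLR1 had an SD of 0.15, larger than 40.4% of these genes, and STRA6 one of 0.14, larger than 37.3%. Without control 1, TTR was still above 81.7% of genes, at 0.17, while FOLR1 was above 54.5% and STRA6 above 37.1%. The rescaling widened the spread of TTR. Its coefficient of variation rose from 8.91% to 25.7% in control rats and from 7.59% to 16.1% in HFD-fed rats. As TPM deposited, FOLR1 had 8.59% and 8.63%, and STRA6 5.85% and 13.3%. The spread of TPM as deposited was not ranked against other genes.

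The levels of 15 markers of the choroid plexus epithelium, TTR and FOLR1 among them, were looked up. All 15 were found and 0 were at 0 in a rat. A marker of any cell type was found only where the study's tables, as used here, named it. Finding it is thus no test of the tissue label, and a marker not found may still be expressed. The 13 markers other than TTR and FOLR1 summed to 7689 to 10906 rescaled TPM on the control diet and to 10145 to 11032 on the HFD. Control 1 had the highest TTR and the lowest sum of these markers, with 9 of 13 below every other rat and 2 (CLIC6 and MSX1) above every other rat. Among the 9 were ENPP2, which makes lysophosphatidic acid, at 2148 in control 1 against 3627 to 4348 in the other control rats, AQP1, the apical water channel, at 369 against 545 to 651, and KL, the coreceptor for FGF23, at 272 against 379 to 414. How many of all genes were lowest or highest in control 1 was not counted, so the 9 of 13 cannot be called particular to these markers. In HFD 2 and HFD 3, which came next in TTR, the sum of the 13 was 11032 and 10737, within or just above the values of the remaining rats (10135 to 10906).

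**Figure D4:**
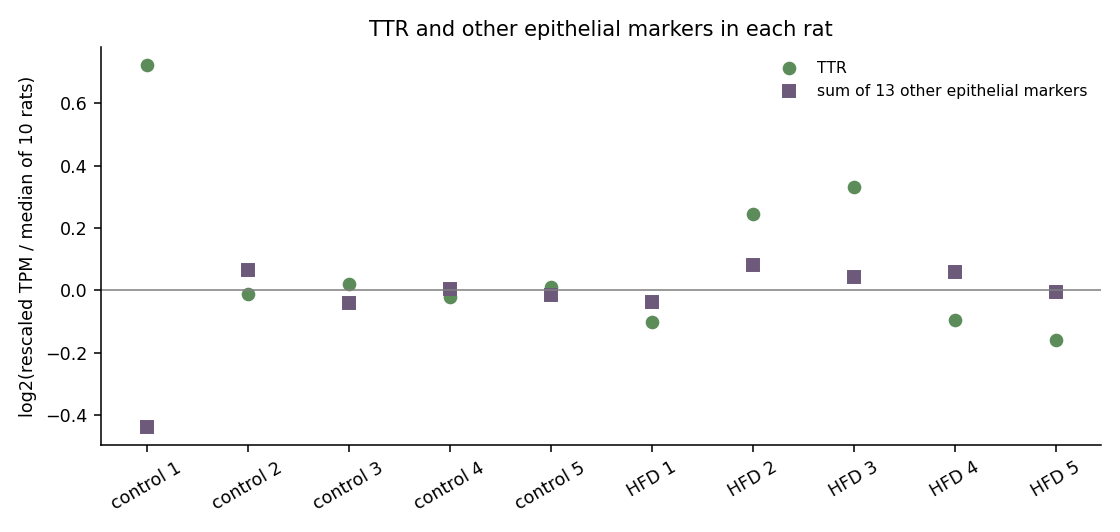
TTR and the sum of 13 other epithelial markers in each rat, as log2 of the rescaled TPM over the median of 10 rats. In control 1 TTR is highest and the sum lowest, at 7689, while in the other 9 rats the sum lies between 10135 and 11032.

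Markers of other cells were at lower levels than TTR but were present. The 4 haemoglobin genes found, of 5 blood markers, summed to 3657 to 7777 rescaled TPM on the control diet, highest in control 1, and to 3103 to 6387 on the HFD, with none at 0. RGS5, the 1 mural cell marker found of 4, was 42.6 in control 1 against 106 to 110 in the other control rats and 101 to 129 on the HFD. The 2 of 5 stromal markers found summed to 126 in control 1, the lowest, and up to 353 in the other control rats, with 196 to 292 on the HFD, but they moved apart. OGN was 10.5 in control 1, 114 to 140 in the other control rats and 31.1 to 79.9 on the HFD, while DCN was 160 ± 43.4 in control rats and 192 ± 25.2 in HFD-fed rats (SD, n = 5 each). The endothelial marker PLVAP, 1 of 5, was 53.8 to 97.2 on the control diet, highest in control 1, and 51.0 to 67.2 on the HFD. The 2 of 6 macrophage markers (CD74 and LYZ2) summed to 432 to 626 and 458 to 653, and the 3 of 4 ependymal markers to 407 to 630, highest in control 1, and 373 to 438. The lists of neuronal and glial markers were not analysed here. The part of these cells in the levels of TTR, FOLR1 and STRA6 was not tested.

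Of 73 symbols (MUT and MMUT stand for the same gene) of genes that bind, carry or convert retinoids, folate, cobalamin, thyroid hormone and other vitamins, 17 were matched by name. None of these 17 had an unadjusted p under 0.05 in either direction, against 8.62% of all genes. Overlap of the diets was not counted over all genes, and the diets overlapped for each of these 17. Their log2 fold changes ran from -0.25 to 0.19, with 3 higher and 14 lower on the HFD, while 47.1% of all genes tested were lower. On TPM as deposited the tally turned, with 12 higher and 5 lower, where 27.0% of all genes were lower. The median of the rescaled values was -0.08, against 0.01 over all genes tested. The deposited values gave 0.02, against 0.12 over all genes. The 17 genes all had a mean above 10 rescaled TPM, and genes with a mean of at least 10 had a median of -0.04. Of these 6272 genes, 130 were higher and 492 lower on the HFD at an unadjusted p under 0.05. The lower tally of the 17 on rescaled TPM can thus not be called particular to them.

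The 4 retinoid genes, which bind or convert retinoids, had log2 fold changes of -0.25 to -0.01 and a median of -0.10. DHRS3, which reduces retinaldehyde to retinol, had the smallest p of the 17, with 79.9 ± 18.8 and 66.1 ± 5.85 (SD, n = 5 each, log2 fold change -0.25, limma, adjusted p = 0.573). Its rescaled TPM was 112, 71.4, 67.2, 68.6 and 80.1 in control rats 1 to 5 and 65.8, 58.1, 66.8, 65.0 and 74.5 in HFD-fed rats 1 to 5. Control 1 stood apart from the other rats, and HFD 2 was the lowest. CRABP2, the cytoplasmic carrier of retinoic acid, was at 88.9 ± 30.6 and 80.9 ± 13.4 (SD, n = 5 each, log2 fold change -0.08).

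Among the 3 folate genes, SLC19A1, the reduced folate carrier, had 107 ± 11.1 and 101 ± 7.45 rescaled TPM (SD, n = 5 each), with a log2 fold change of -0.07. FOLR1 was thus about an order of magnitude above it per transcript length. SHMT2, the mitochondrial serine hydroxymethyltransferase, had 48.3 ± 8.15 and 41.6 ± 5.48 (SD, n = 5 each, log2 fold change -0.20, limma, adjusted p = 0.588). The third, GGH, which trims polyglutamates from folate and is named here after its values were seen, had a log2 fold change of -0.10 and, without control 1, of -0.18 (limma, unadjusted p = 0.0113, adjusted 0.299). Of the 3 cobalamin genes, TCN2, the plasma carrier of cobalamin, had 155 ± 43.8 and 142 ± 14.8 (SD, n = 5 each, log2 fold change -0.09). CD320, the receptor for that carrier, had 127 ± 24.8 and 108 ± 12.2 (SD, n = 5 each, log2 fold change -0.21, limma, adjusted p = 0.585).

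The 3 thyroid hormone transporters had a median log2 fold change of 0.02 on rescaled TPM, where the medians of the other groups were below 0. On TPM as deposited it was 0.12, and of the other groups only the retinoid genes kept a median below 0, at -0.00027. SLCO1C1, a thyroxine transporter, was at 176 ± 10.4 and 179 ± 10.4 (SD, n = 5 each, log2 fold change 0.02, 95% interval -0.12 to 0.16). SLCO1A2, an organic anion transporter, was at 205 ± 45.0 and 228 ± 13.4 (SD, n = 5 each, log2 fold change 0.19, limma, adjusted p = 0.627), with control 1 at 127 against 204 to 235 in the other control rats. Of the 4 genes of other vitamins, SLC23A2, a vitamin C transporter, had 71.2 ± 4.43 and 65.3 ± 4.80 (SD, n = 5 each, log2 fold change -0.13, limma, adjusted p = 0.573). SLC5A6, which carries biotin and pantothenate, had 74.2 ± 6.32 and 72.0 ± 4.75 (SD, n = 5 each, log2 fold change -0.04). The remaining genes had log2 fold changes of -0.12 to 0.16.

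**Figure D5:**
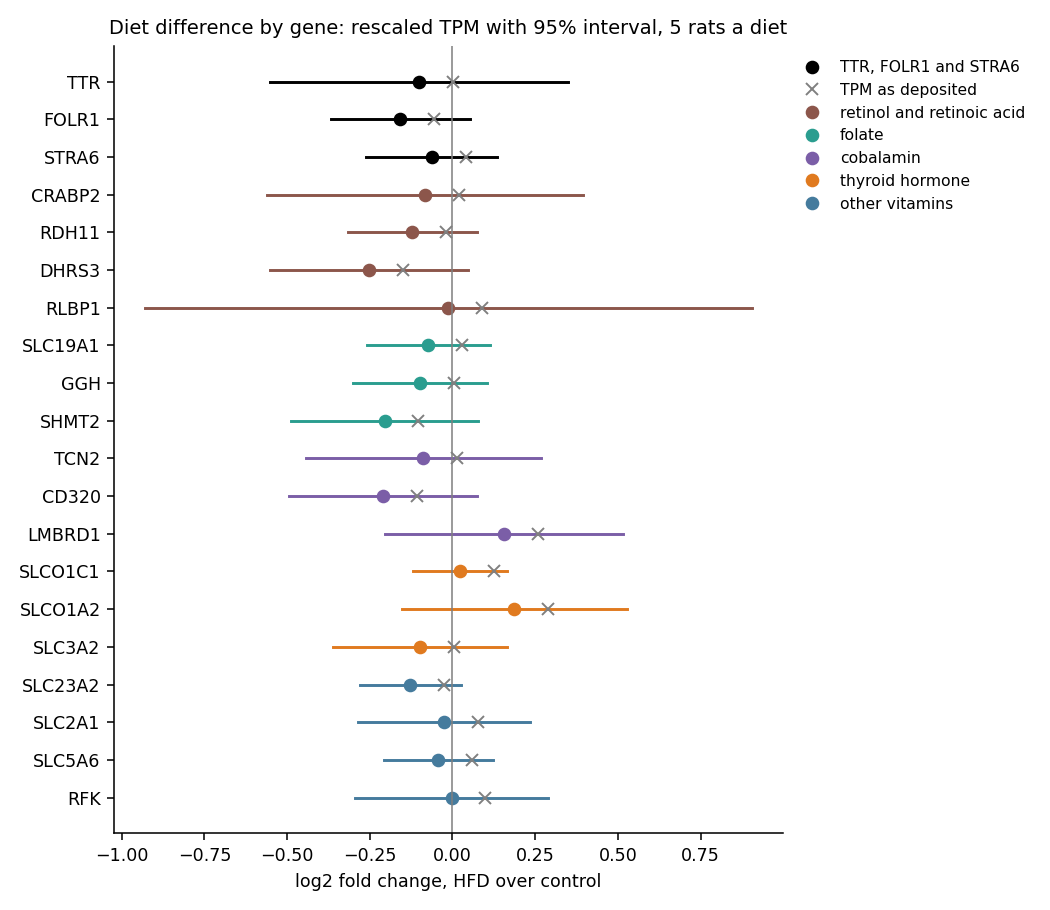
Log2 fold change of the HFD over the control diet for TTR, FOLR1, STRA6 and 17 genes of vitamin and thyroid hormone handling, where filled points are rescaled TPM with their 95% interval from limma (5 rats a diet), crosses TPM as deposited. All intervals include 0, and the crosses lie about 0.10 to the right of the points.

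The genes whose levels followed each of the 3 most closely were sought among 1990 named genes, by Pearson's r of log2 rescaled TPM centred within the diets, which shares the scaling factor of each rat. They are given as a description. For TTR these were COX5A, a nuclear-encoded subunit of cytochrome c oxidase, with r = 0.984 over 10 rats and 0.955 over 9 without control 1, MT-ND1, a complex I subunit of mitochondrial DNA, with 0.976 and 0.957, and the unnamed locus AABR07073045.1, with 0.969 and 0.904. For FOLR1 they were GLB1, the lysosomal beta-galactosidase, with 0.975 and 0.960, ERGIC3, a protein of the early secretory pathway, with 0.972 and 0.982, and BCKDHA, of branched-chain amino acid breakdown, with 0.958 and 0.929. STRA6 was followed by NAPA, a vesicle fusion protein, with 0.914 and 0.834, ECI1, an enzyme of fatty acid oxidation, with 0.909 and 0.792, and MACROD1, with 0.903 and 0.761. The 3 lists shared no gene.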

How the data were processed

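RNA of the choroid plexus was sequenced by the submitters (paired reads), and the submitters' processing notes name STAR 2.7.2a, RSEM 1.3.3 and the build Rnor_6.0. The authors deposited TPM and FPKM per gene and rat, and raw counts were not used here. RSEM can divide reads among near-identical copies.

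Symbols came from the study's tables (2015 identifiers), leaving out 7 symbols with more than 1 identifier. The members, lists and rescaling were chosen with earlier results of these data known. Rats were grouped by the diet in the labels.

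TPM were rescaled by median ratios over genes above 0 in every rat whose TPM averaged 1 or more. Genes whose rescaled TPM averaged 1 or more entered a test on log2(TPM + 0.1) with limma 3.58.1 (R 4.3.3; diet as the only term, mean-variance trend, Benjamini-Hochberg adjustment at 0.05), so fold changes of low genes are understated. The fit was tested on simulated data. Exact permutation tests compared mean log2 values over 252 assignments, and percentages of TPM without logs. Correlations used all 14400 permutations within the diets. Tables and figures were made with pandas 2.3.3, matplotlib 3.10.9, scipy 1.17.1 and numpy 2.4.6 under python 3.11.15. Alternatives covered the scaling, pseudocount, filter, variance model, replicate block and each rat left out. Some genes of the lists are not reported here and were left out of their counts. Genes named were the 3 members, a list of carriers, the smallest p in each list and the 3 closest genes to each member. Since TPM carry no depth, precision rests on the spread between rats, with 1 library each. In limma it also rests on the mean-variance trend fitted over all genes tested.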

Additional observations from a re-analysis of the deposited data

Results flagged for a closer look

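In each diet of 5 rats, the highest and the lowest value were compared with the nearest other rat by Dixon's ratio, at a limit of 0.71. Of 58 groups, 9 passed, where chance gives about 2.9, and 8 of the 9 were values of control 1.

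TTR in control 1 was at 397356 TPM as deposited, against 322165 to 341632 in the other control rats, and at 530361 after rescaling, against 316761 to 326365. In the same rat DHRS3 was high, at 112 rescaled TPM against 67.2 to 80.1. SLCO1A2, at 127 against 204 to 235, and RFK, a riboflavin kinase, at 58.9 against 85.7 to 95.6, were low. Its scaling factor was 0.749 against 1.01 to 1.05, its mean effective transcript length 789 against 905 to 918 bases, and its share of TPM in genes encoded by mitochondrial DNA 11.7% against 7.39% to 8.33%. The remaining value was that of RLBP1, which binds retinaldehyde, in control 3, at 111 rescaled TPM against 36.5 to 46.7.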

How the results depend on the processing

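FOLR1 kept its direction and missed the adjusted threshold in 21 of 21 alternatives, with a log2 fold change of -0.22 to -0.06. TTR and STRA6 also missed it in each of 21, but their direction was not stable. TTR turned to 0.0021 on TPM as deposited, 0.0023 on TPM without TTR and 0.045 with array weights, and STRA6 to 0.040, 0.040 and 0.016. With 1 rat left out, TTR ran from -0.17 to 0.044 and STRA6 from -0.11 to 0.0086, both turning without control 1, and FOLR1 from -0.22 without control 3 to -0.09 without control 1. The TTR share ran from -0.926 to 1.36 percentage points, FOLR1 per TTR from -0.14 to 0.034 (turning without HFD 3), STRA6 per TTR from -0.036 to 0.12 and STRA6 per FOLR1 from 0.037 to 0.15, with the last past 0.05 only without HFD 2. Without a filter on low genes the standard error of TTR was 1.23 in place of 0.20, and the cause was not tested.

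Genes with an adjusted p under 0.05 numbered 1 without a filter on low genes and 3 with array weights, in place of 0, and 0 in each fit with 1 rat left out. At an unadjusted p there were 624 genes (5.11%) on TPM as deposited, 622 of 6272 tested (9.92%) at a mean of at least 10, 1877 (15.4%) with array weights and 793 to 1439 with 1 rat left out, in place of 1051 (8.62%). The split of 461 higher and 590 lower was 873 and 206 on TPM without TTR and 629 and 379 with upper-quartile rescaling. Of the 17 vitamin and hormone genes, 0 to 2 passed with 1 rat left out and 1 with array weights, in place of 0. These were GGH (array weights, without control 1), SHMT2 (without control 5 or HFD 5), CD320 (without control 5) and SLC23A2 (without HFD 4), all lower on the HFD and none past an adjusted p of 0.05. Over all genes, the share with an unadjusted p under 0.05 was 15.4% with array weights and 11.8% without control 1. It was 9.93% without control 5, 6.53% without HFD 4 and 6.62% without HFD 5.

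Centred within each diet, rats with the same number in both diets correlated at 0.116, -0.038, 0.011, 0.060 and 0.106. Rats of unlike number were not compared, so whether the numbers pair the rats was not tested. With the replicate block, the unadjusted p was under 0.05 for 1137 genes and the adjusted p for 0, and log2 fold changes were as without it (-0.10, -0.16 and -0.06 for TTR, FOLR1 and STRA6). The block changed no call. The depth of each library is unknown, and with 5 rats a diet the 95% interval of TTR spans 0.683- to 1.27-fold.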
